A study of Homo sapiens with 40 samples.

Results

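The genes examined were 8 transcription factors of the endoderm and the pancreatic progenitor: FOXA1, FOXA2, FOXA3, HNF4A, GATA4, GATA6, ONECUT1 and SOX9. They were chosen by name, and are 8 of the 20046 protein-coding genes of the GENCODE 44 annotation. Each gene was assigned the H3K27ac and CTCF peaks that lay within 2 kb of one of its start sites, within its gene body, or outside both but nearer to its start sites than to those of any other protein-coding gene and at most 100 kb away. This gave 45 of the 51489 H3K27ac peaks and 32 of the 51457 CTCF peaks in the authors' tables.

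The FOXA proteins bind closed chromatin and open the gut tube endoderm to later factors. GATA4 and GATA6 act with them in specifying the pancreas, HNF4A is a nuclear receptor of liver and islet, ONECUT1 (HNF6) acts upstream of endocrine fate, and SOX9 maintains the progenitor pool and later marks duct cells. FOXA2 and HNF4A stay active in adult beta cells, whereas SOX9 and ONECUT1 are switched off as endocrine cells mature. Acetylation of lysine 27 on histone H3 (H3K27ac) is found at promoters and enhancers in use, and CTCF binds DNA at the anchors of chromatin loops.

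The cells were EndoC-βH3, a single beta-cell line derived from human fetal pancreas, in which hTERT and SV40 Large T can be excised by CreER. Senescent cells had received 4-hydroxytamoxifen for 3 weeks and non-senescent cells had not, and the genotype was labelled WT in both states. H3K27ac and CTCF were each profiled by ChIP-seq in 3 senescent and 3 non-senescent libraries. The labels do not say whether these came from separate cultures, so the errors measure only the spread between libraries, which may be technical. For each peak the tables give a mean normalised read count over the 6 libraries, a log2 fold change of senescent over non-senescent cells and its standard error (SE), and no values per library. The counts given below for each state are those implied by the mean and the fold change. A peak was gained or lost where the fold change exceeded 1.5 (0.585 on the log2 scale) and the adjusted p of the authors' DESeq2 test was under 0.05 for H3K27ac or under 0.2 for CTCF.

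Depth of the single libraries is not given by the tables, and the peaks of the 8 genes together held a mean of 33842 H3K27ac and 3814 CTCF counts. The cell type label was checked at promoters: all 9 beta-cell markers (INS, PDX1, MAFA and others) carried an H3K27ac peak, at 49.5 to 492.5 counts per kb. Peaks were found at 0 of 3 mesenchymal, 1 of 3 acinar, 1 of 3 ductal, 1 of 3 other endocrine, 1 of 2 immune and 2 of 3 hepatocyte marker promoters. The hepatocyte pair was APOA2 (138.1 counts per kb) and TTR (141.3). The others were CPA1 (acinar, 298.4), KRT19 (ductal, 122.3), PTPRC (immune, 85.8) and SST (other endocrine, 50.3). All these lay within the range of the beta-cell markers, and 67.5% of protein-coding genes had an H3K27ac promoter peak. The strength of a peak thus did not set the beta-cell markers apart. Of these marker promoters IAPP was gained (log2 fold change 0.93), and PCSK1 (-1.41), KRT19 (-0.74) and SST (-0.86) were lost. The part of these shifts in the values below was not tested.

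The called H3K27ac peaks of the 8 genes were all losses. Of their 45 peaks, 6 were lost, at FOXA2, GATA4 (2 peaks), GATA6 (2 peaks) and SOX9. This is 13.3%, beside 13.1% of all H3K27ac peaks. By the same DESeq2 test 0 were gained, beside 9.47% of all peaks. With an unadjusted p under 0.05 and the same fold, 7 were lost, beside 14.6% of all peaks, and again 0 were gained, beside 10.8%. At an adjusted p under 0.05 and any fold, 14 peaks (31.1%) were lower in senescent cells, beside 20.3% of all peaks, and 5 (11.1%) were higher, beside 18.9% of all peaks. The median log2 fold change was -0.20 over the 45 peaks and 0.0075 over all peaks, and 30 of the 45 lay below 0 (66.7%, beside 49.4% of all peaks). The 8 genes thus lost H3K27ac peaks at about the rate of the whole table. The lost peaks had mean counts between 28.9 and 300.9, whereas the 8 peaks with the most reads, from 1663 to 7992 counts, all stayed within the 1.5-fold limit, as most peaks of that depth did (94.4% of the 2207 H3K27ac peaks with at least as many reads were uncalled).

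**Figure D1:**
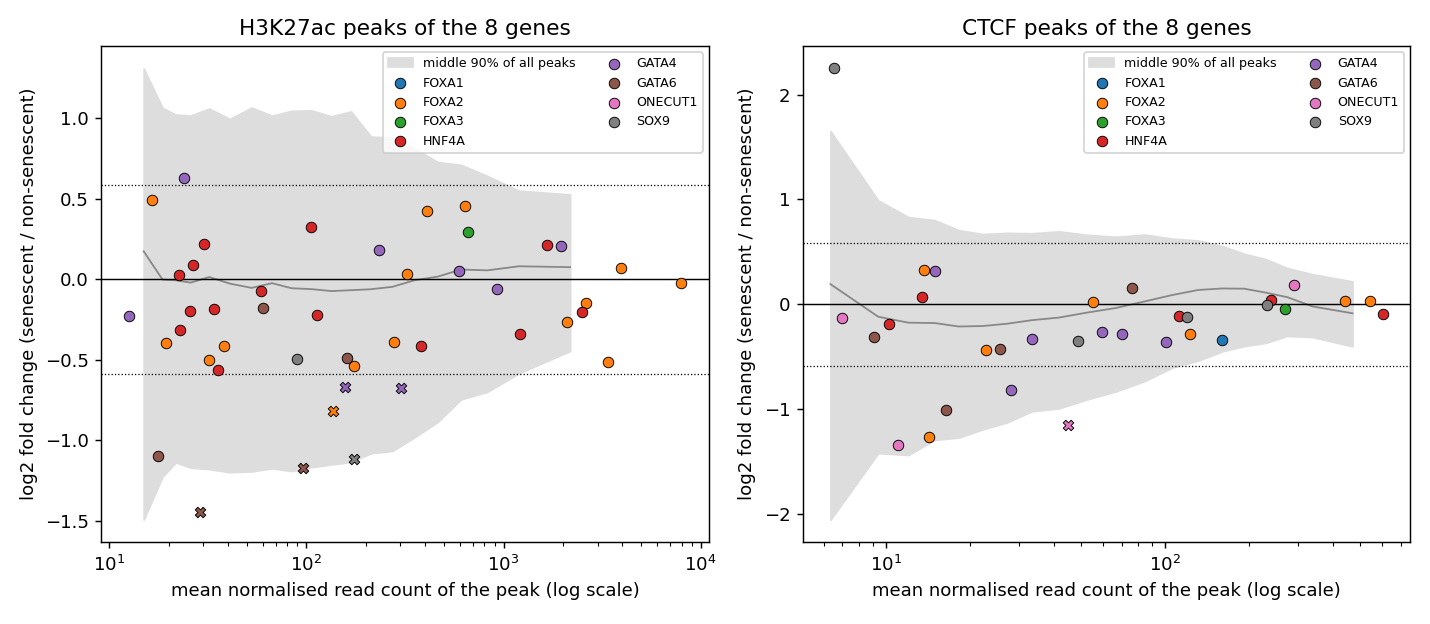
Mean normalised read count of each peak (log axis) against its log2 fold change, for H3K27ac (left) and CTCF (right), with one colour per gene. Crosses are lost peaks, dotted lines mark a 1.5-fold change, and the grey band holds the middle 90% of all peaks at each count. The 6 lost H3K27ac peaks lie at or below 300.9 counts, and the peaks with the most reads sit near 0.

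At promoters the 8 genes fell into 3 classes. A strong H3K27ac peak covered start sites of FOXA2, FOXA3, HNF4A and GATA4, a weak one covered that of GATA6, and FOXA1, ONECUT1 and SOX9 had no peak within 2 kb. In all, 5 of the 8 genes had an H3K27ac promoter peak, beside 67.5% of 20033 protein-coding genes. All 8 had a CTCF peak in the promoter window, beside 52.8% of the same genes. The promoter peak with the most reads was used for each gene. Ordered by log2 fold change from lowest to highest, these were GATA6 (-1.45), HNF4A (-0.20), FOXA2 (-0.02), GATA4 (0.21) and FOXA3 (0.29), beside a median of 0.039 over 16955 promoter peaks. GATA4 and FOXA3 did not differ beyond their errors, with a difference of 0.085 and a 95% interval from -0.13 to 0.30. For the other neighbours in this order the interval of the difference did not include 0. HNF4A is placed here by its downstream promoter peak. Its upstream promoter peak had 0.22, and the inverse-variance mean over its promoter peaks was -0.0012, above FOXA2. The place of HNF4A below FOXA2 thus depends on which promoter peak is used.

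**Figure D2:**
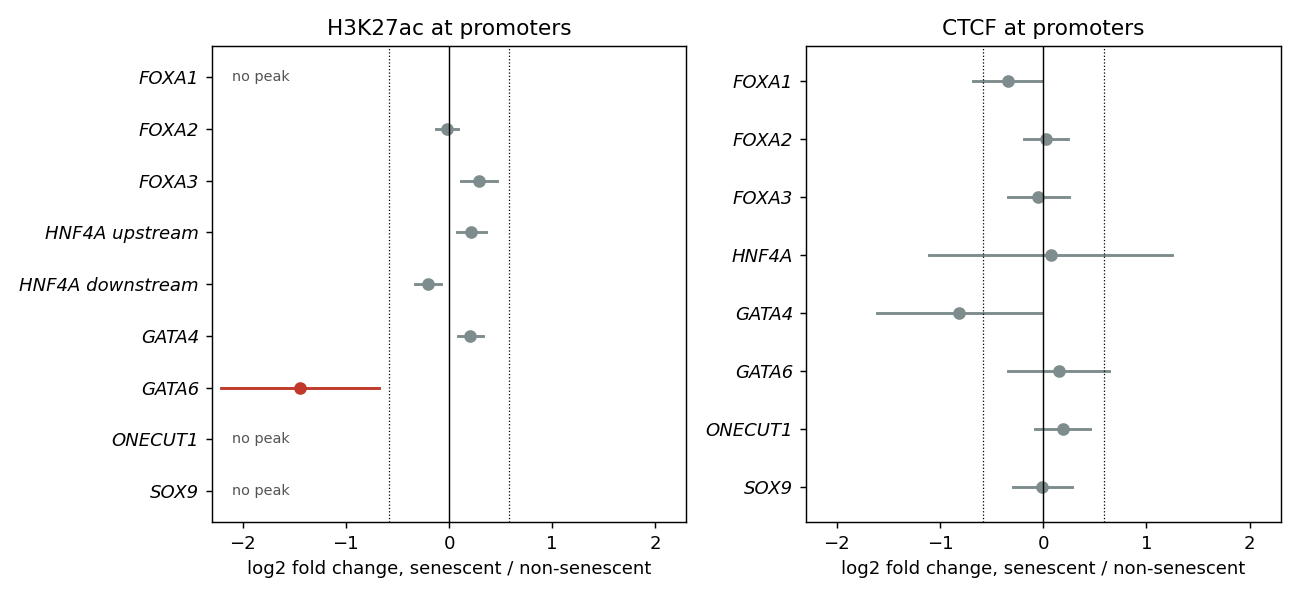
Log2 fold change (senescent over non-senescent) with 95% intervals at the promoter peaks of the 8 genes, for H3K27ac (left) and CTCF (right). Dotted lines mark a 1.5-fold change. GATA6 is the gene whose H3K27ac promoter peak was lost (-1.45). The strongest upstream and downstream HNF4A promoter peaks lie on opposite sides of 0, and no CTCF promoter peak was called.

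FOXA2, which stays active in adult beta cells, carried the densest mark. Its promoter peak (chr20:22574948-22587531, covering the whole gene) was 12583 bp wide and held a mean of 7992 counts, rank 51 of all H3K27ac peaks by count. Per length it had 635.1 counts per kb, and 99.8% of all peaks had no more. The implied counts were 8056 in non-senescent and 7927 in senescent cells, a log2 fold change of -0.02 (SE 0.055, adjusted p = 0.77). The 95% interval from -0.13 to 0.084 excludes a 1.5-fold change in either direction. The FOXA2 promoter is thus one of the most heavily marked of the line, and its level was nearly the same in both states.

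The 14 other H3K27ac peaks of FOXA2 formed a chain on either side of the gene, of which 11 lay downstream, in and beyond the non-coding gene LINC00261. This chain did not move as a unit. The peak with the most reads among them, 93.7 kb downstream (chr20:22487097-22494666, intergenic), had 3964 counts and a log2 fold change of 0.07 (SE 0.063, adjusted p = 0.39). The next by count, 60.2 kb downstream (3380 counts), was lower in senescent cells by -0.51 (SE 0.072, adjusted p = 2.4e-11), with implied counts of 3972 and 2789. Its fold stayed under the limit for a call, although its error was small.

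Only the peak 47.5 kb downstream of FOXA2 was lost (chr20:22536096-22538114, intergenic). Its implied count was 174 in non-senescent and 98.9 in senescent cells, a log2 fold change of -0.82 (SE 0.18, adjusted p = 2.1e-05). The peak 15.2 kb downstream, in LINC00261, missed the fold limit at -0.54 (SE 0.16, adjusted p = 0.0027) and passed it (-0.60) when values were centred on the peaks with the most reads. A pair of peaks was higher in senescent cells: the one 22 kb downstream rose from 540.8 to 741.8 implied counts (log2 fold change 0.46, SE 0.086, adjusted p = 1.1e-06), and the one 100.6 kb downstream from 350.9 to 471.2 (0.43, SE 0.11, adjusted p = 0.00059). In all, 5 FOXA2 peaks were lower and 2 higher at an adjusted p under 0.05.

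**Figure D3:**
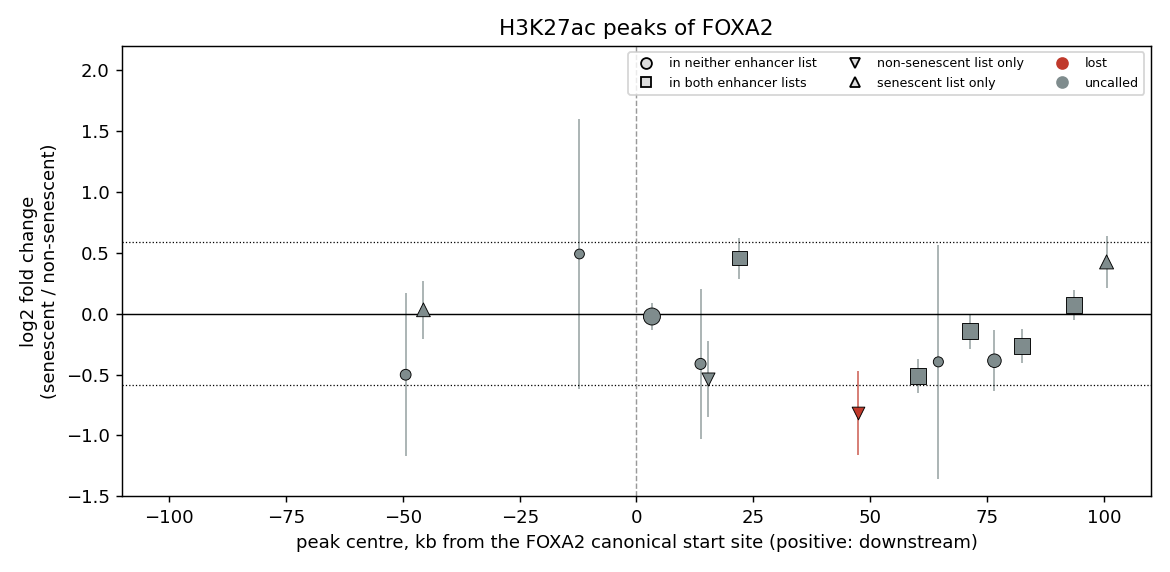
Log2 fold change with 95% interval of the 15 H3K27ac peaks of FOXA2 by distance of the peak centre from the canonical start site in kb. Marker shape gives membership in the enhancer lists of both states, marker size the read count, and dotted lines a 1.5-fold change. The lost peak (-0.82) lies 47.5 kb downstream, between peaks at 22 kb (0.46) and 60.2 kb (-0.51).

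FOXA2 peaks continued past the 100 kb limit. The last FOXA2 H3K27ac peak inside it began 98986 bp from a start site (0.43). The first beyond it was 112268 bp away (1388 counts, log2 fold change 0.05). In all, 6 H3K27ac peaks between 112268 and 192845 bp were nearest to FOXA2. The farthest of them was gained (444.8 counts, log2 fold change 0.82, SE 0.10, adjusted p = 1.0e-13). For SOX9, on another chromosome, a peak 101612 bp away had -0.13.

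FOXA1 and FOXA3, the relatives of FOXA2, differed from it. FOXA1 had no H3K27ac peak by the rule: the nearest began 47168 bp from its start sites, held 19.4 counts, was closer to a start site of MIPOL1 and was lost (log2 fold change -1.43, SE 0.48, adjusted p = 0.0097). FOXA3 had 1 H3K27ac peak, at its promoter (chr19:45861185-45864994), which also covered the start of SYMPK. It had 658.7 counts, implied at 592.1 and 725.3, and was higher in senescent cells by 0.29 (SE 0.088, adjusted p = 0.0036), short of the fold limit. Which of the overlapping genes the reads belong to cannot be told from a peak.

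HNF4A has alternative promoters used in different tissues, the upstream one mainly in islets and the downstream one mainly in liver. The strongest peaks over them shifted in opposite directions. The upstream promoter peak (chr20:44354134-44358766) had 1663 counts, implied at 1539 in non-senescent and 1788 in senescent cells, a log2 fold change of 0.22 (SE 0.071, adjusted p = 0.0086). The downstream promoter peak (chr20:44400601-44414528) had 2491 counts, implied at 2665 and 2317, a log2 fold change of -0.20 (SE 0.063, adjusted p = 0.0054). The upstream peak was thus higher and the downstream peak lower in senescent cells, and neither passed 1.5-fold.

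The upstream value exceeded the downstream one by 0.42 (combined SE 0.095, 95% interval 0.23 to 0.60), with the peaks treated as independent although they come from the same libraries. Per length the upstream peak held 359.1 counts per kb and the downstream one 178.8. The downstream peak ran on for 13927 bp into the gene, and 99.4% of all peaks were no wider. Its value is thus that of a wide region and not of the start site alone. A weaker promoter peak, 911 bp from the nearest start site (chr20:44398668-44400328, 105.5 counts), had 0.32 (SE 0.21, adjusted p = 0.22). An inverse-variance mean over all 3 promoter peaks of HNF4A was -0.0012, because their signs differ.

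The promoter sequences are shown because the strongest peaks over these promoters moved in opposite directions. They are from RefSeq on GRCh38.p14, from 250 bases before to 50 after the start, plus strand, with CpG in capitals.
HNF4A upstream promoter, chr20:44355449-44355748: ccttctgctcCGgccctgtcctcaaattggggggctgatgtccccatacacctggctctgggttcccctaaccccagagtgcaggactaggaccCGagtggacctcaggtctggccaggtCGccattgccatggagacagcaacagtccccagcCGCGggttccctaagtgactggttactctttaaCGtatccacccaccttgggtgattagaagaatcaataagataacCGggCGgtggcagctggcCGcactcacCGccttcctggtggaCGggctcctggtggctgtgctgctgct
HNF4A downstream promoter, chr20:44400989-44401288: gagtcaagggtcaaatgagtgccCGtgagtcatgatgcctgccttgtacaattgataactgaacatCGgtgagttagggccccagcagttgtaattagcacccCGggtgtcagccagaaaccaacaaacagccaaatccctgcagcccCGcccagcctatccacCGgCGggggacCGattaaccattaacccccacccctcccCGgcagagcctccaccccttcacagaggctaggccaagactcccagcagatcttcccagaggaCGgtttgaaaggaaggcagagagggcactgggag
They hold 11 and 9 CpG, at 60.0% and 57.7% GC, beside a median of 14 CpG over 35116 RefSeq promoters. RefSeq entries were matched for 5 of the 8 genes (6 promoters), and FOXA2, GATA4 and SOX9 had none in the table. The other matched promoters held 25 (GATA6), 34 (FOXA1), 37 (FOXA3) and 39 CpG (ONECUT1). Low CpG content thus set the HNF4A promoters apart from the other matched ones, including FOXA1 and ONECUT1, which had no H3K27ac peak.

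Between the HNF4A promoters the mark was lower in senescent cells at both strong intronic peaks. The peak 38.1 kb downstream of the upstream start site (1213 counts) had a log2 fold change of -0.34 (SE 0.071, adjusted p = 1.2e-05), and the peak 14.9 kb downstream (379.8 counts) one of -0.41 (SE 0.11, adjusted p = 0.00069). The remaining 10 peaks had at most 112.8 counts and adjusted p between 0.19 and 0.97. Of its 14 H3K27ac peaks, HNF4A had none that was called by DESeq2, and 4 that passed an adjusted p of 0.05 at any fold.

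**Figure D4:**
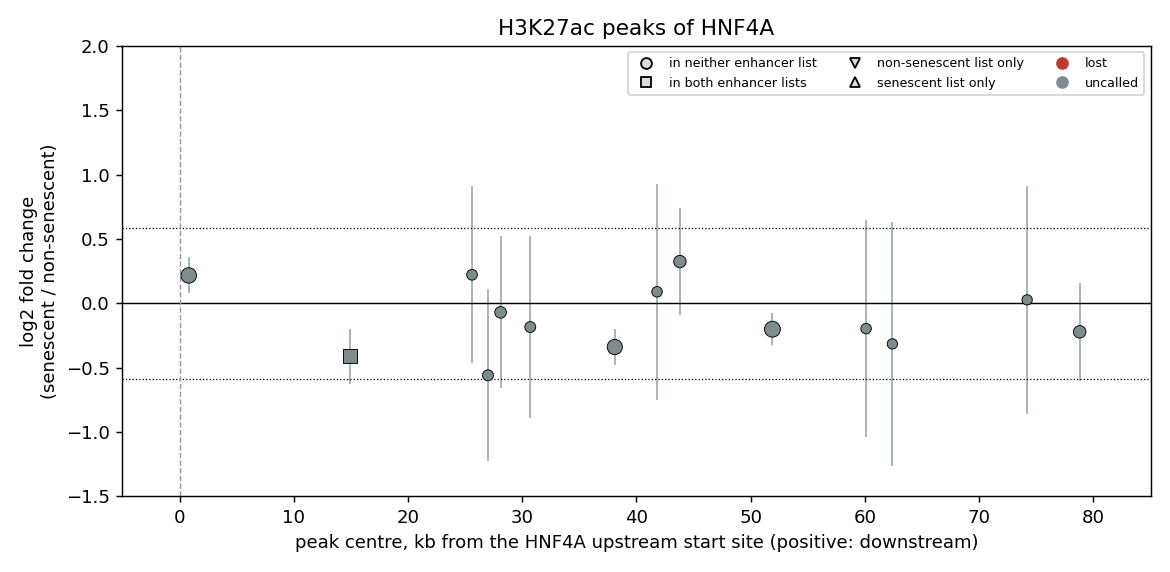
Log2 fold change with 95% interval of the 14 H3K27ac peaks of HNF4A by distance in kb from the upstream start site. Larger markers hold more reads, and dotted lines mark a 1.5-fold change. The upstream promoter (0.22) and the peaks at 14.9 kb (-0.41), 38.1 kb (-0.34) and the downstream promoter (-0.20) have intervals that do not include 0.

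GATA4 and GATA6, related zinc-finger factors of the early pancreas, each lost 2 H3K27ac peaks but differed at their promoters. The main GATA4 promoter peak (chr8:11702058-11716054, covering a start site and exons) was 13996 bp wide and held 1953 counts. It was higher in senescent cells, at 2093 against 1812 implied counts (log2 fold change 0.21, SE 0.064, adjusted p = 0.0041), short of the fold limit. A further peak over upstream start sites (930 counts) had -0.06 (SE 0.082, adjusted p = 0.59).

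GATA4 lost a peak 61.4 kb upstream of its canonical start site (chr8:11640768-11644870, in a non-coding gene), with implied counts of 369.9 and 231.8 and a log2 fold change of -0.67 (SE 0.13, adjusted p = 4.0e-06). It also lost an intronic peak 15.3 kb into the gene (chr8:11717926-11721126), from 192.2 to 120.9 implied counts (-0.67, SE 0.17, adjusted p = 0.00029). The other GATA4 peaks had values between -0.23 and 0.63 and adjusted p from 0.22 to 0.78. Loss at GATA4 thus stood beside a main promoter peak that was slightly higher. The inverse-variance mean over the GATA4 promoter peaks was smaller, at 0.11 (SE 0.050). Centred on the peaks with the most reads, the main promoter peak had 0.15 (SE 0.064).

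GATA6 had 5 H3K27ac peaks, and all lay below 0. Its promoter peak (chr18:22169465-22170497, covering the start site and an exon, and the start of GATA6-AS1) had 28.9 counts and 28.1 counts per kb, a level that only 1.99% of all peaks did not exceed. The implied counts were 42.4 in non-senescent and 15.5 in senescent cells, a log2 fold change of -1.45 (SE 0.39, 95% interval -2.21 to -0.68, adjusted p = 0.00100). An intronic peak 16.3 kb downstream (chr18:22184979-22186764) fell from 133.8 to 59.4 implied counts (-1.17, SE 0.22, adjusted p = 9.3e-07). A peak 62.6 kb upstream was lower without reaching the fold limit (-0.49, SE 0.16, adjusted p = 0.0092). In the remaining pair, the weaker peak (17.6 counts) had -1.10 with SE 0.50 (adjusted p = 0.069). The stronger one (60.2 counts) was close to 0, at -0.18 with SE 0.28 (adjusted p = 0.65).

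The GATA6 promoter is shown as the promoter that was lost, again from RefSeq on GRCh38.p14 with CpG in capitals.
GATA6 promoter, chr18:22169339-22169638, plus strand: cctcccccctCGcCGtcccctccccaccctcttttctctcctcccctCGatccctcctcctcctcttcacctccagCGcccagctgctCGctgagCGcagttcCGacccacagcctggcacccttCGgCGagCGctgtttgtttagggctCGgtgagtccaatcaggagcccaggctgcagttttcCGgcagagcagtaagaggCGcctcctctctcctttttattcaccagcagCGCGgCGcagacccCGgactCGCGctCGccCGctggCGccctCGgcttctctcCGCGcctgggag
Its 25 CpG are as many or more than in 69.9% of all RefSeq promoters. GC content moved with the fold change over the whole table: the median was 0.079 in the tenth of H3K27ac peaks with the least GC and -0.10 in the tenth with the most. After removal of that trend the promoter value was -1.24 (adjusted p = 0.0058) and the peak was still lost. With peaks under 50 counts left out it drops from the table, and the 6 losses become 5.

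The lost GATA6 intron held the 7 letters TGTTTAC, a core that FOXA factors recognise, at 2 places on the plus strand, shown from hg38 with the match in capitals.
GATA6 intron, first match, chr18:22186069-22186109: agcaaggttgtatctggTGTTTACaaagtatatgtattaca
GATA6 intron, further match, chr18:22186397-22186437: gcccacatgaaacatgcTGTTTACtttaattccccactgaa
Searched on both strands, TGTTTAC occurred in 19 of the 45 H3K27ac peaks (42.2%) and in 29.2% of all H3K27ac peaks, which are narrower. Per kb the order was the other way round, 0.146 in the 45 peaks and 0.171 in all. Letters of the other families gave 0.579 and 0.644 per kb for AGATAA (read by GATA factors), 0.0266 and 0.0204 for CAAAGTCCA (read by HNF4A), 0.0399 and 0.0312 for ATCGAT (read by ONECUT factors), and 0.193 and 0.117 for ACAATGG (read by SOX factors). None of these 5 strings contains another. Among the lost H3K27ac peaks, only the GATA6 intron and the SOX9 peak held TGTTTAC. The GATA6 intron also held 3 matches of ACAATGG, and the lost GATA4 intron held 7 of AGATAA. A match is not a bound site.

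ONECUT1 and SOX9, genes that mature beta cells are known to silence, had no H3K27ac peak within 2 kb of a start site. The nearest H3K27ac peak to ONECUT1 was 100665 bp away and was nearer to ATOSA. SOX9 had 2 distal H3K27ac peaks. The one 52.8 kb downstream (chr17:72172559-72175164, within the non-coding gene SOX9-AS1) fell from 237.9 to 109.8 implied counts (log2 fold change -1.12, SE 0.16, adjusted p = 1.4e-11). It was the loss with the smallest adjusted p among the 45 peaks and the only one that also passed a test against a 1.5-fold change (adjusted p = 0.017). The one 90.5 kb upstream had 89.9 counts and -0.49 (SE 0.23, adjusted p = 0.069).

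The lost SOX9 peak held a single TGTTTAC, shown from hg38, plus strand.
SOX9 downstream peak, chr17:72173691-72173731: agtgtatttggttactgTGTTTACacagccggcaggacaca
The nearest start sites of the lost FOXA2 peak, the upstream GATA4 peak and this SOX9 peak belong to non-coding genes when those are counted. They were assigned to the 8 genes because only protein-coding start sites were used, and 3 of the 6 losses remain otherwise. Which gene such a peak acts on was not tested.

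**Figure D5:**
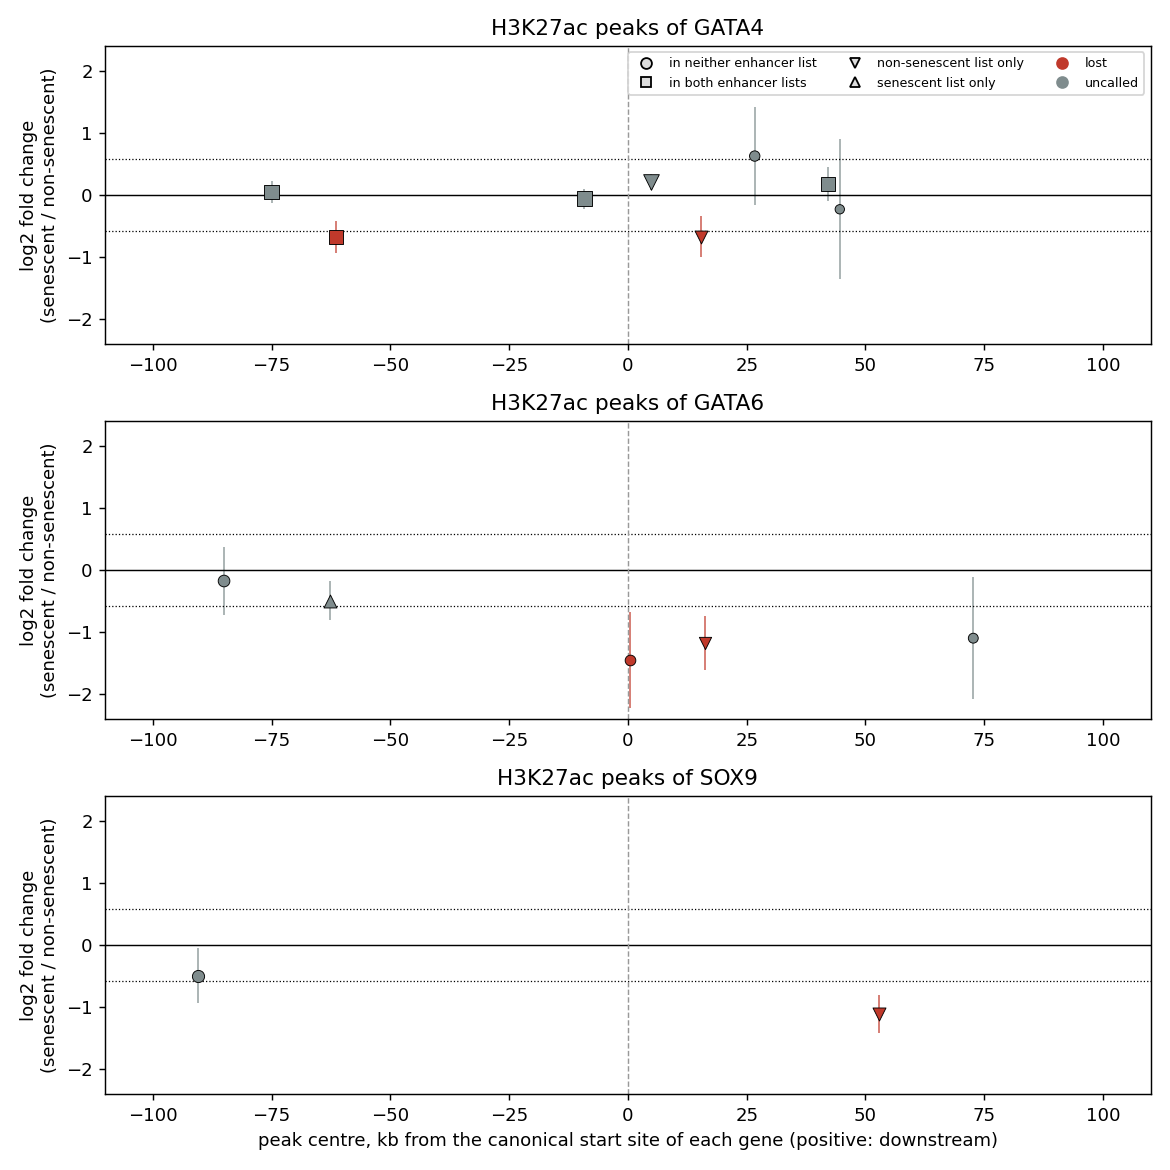
Log2 fold change with 95% interval of the H3K27ac peaks of GATA4 (8 peaks), GATA6 (5) and SOX9 (2) by distance in kb from each canonical start site. Red markers are lost peaks, marker shapes give the enhancer lists, and dotted lines mark a 1.5-fold change. All GATA6 and SOX9 peaks lie below 0, while GATA4 peaks lie on both sides.

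The authors' lists of active enhancers, defined by H3K27ac together with H3K4me1, gave the 8 genes 16 enhancers in non-senescent and 13 in senescent cells. An enhancer was shared where it overlapped one of the other list by at least 1 bp. In each list 10 were shared, 62.5% of the non-senescent and 76.9% of the senescent ones, beside 70.6% and 79.5% over the whole lists. FOXA2 had 7 in each state, of which 2 in each were found in that state alone. GATA4 had 6 and 4, HNF4A 1 and 1, and SOX9 1 and 0. GATA6 had 1 in each state at different places: the lost intron in non-senescent cells and the peak 62.6 kb upstream in senescent cells. FOXA1, FOXA3 and ONECUT1 had none.

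Enhancers listed in non-senescent cells alone held 4 of the 6 lost H3K27ac peaks, namely those 47.5 kb from FOXA2, in the GATA4 intron, in the GATA6 intron and downstream of SOX9. The upstream GATA4 peak was in both lists and the GATA6 promoter in neither. The lists rest on the same H3K27ac libraries, so this is not separate evidence of loss. The senescent-only GATA6 enhancer lay in a peak whose H3K27ac was lower in senescent cells (-0.49). A GATA4 enhancer listed in non-senescent cells alone (chr8:11712234-11715091) lay in the main promoter peak, which was higher in senescent cells (0.21). A place in 1 list thus did not always match the direction of the count. In all, 19 of the 45 H3K27ac peaks (42.2%) lay in a listed enhancer, beside 33.3% of all peaks, but only 1 of the 14 HNF4A peaks did.

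CTCF peaks of the 8 genes were seldom called. Of 32 CTCF peaks, 22 had an adjusted p, as 39485 of all CTCF peaks did, and the others had too few reads. Of the 22, 1 was lost (4.55%), beside 4.28% of all tested CTCF peaks, and 0 were gained by DESeq2, beside 2.99% of all. Of all 32, 4 were lost at an unadjusted p under 0.05 with a 1.5-fold change, a larger share than the 5.54% of all CTCF peaks. Again 0 were gained, beside 3.01%. The median log2 fold change was -0.16, beside -0.012 over all CTCF peaks and -0.14 over CTCF peaks at promoters. CTCF peaks with more GC had lower values over the whole table, with a median of 0.22 in the tenth with the least GC and -0.31 in the tenth with the most, and the median GC content was 53.1% in the 32 peaks and 46.4% in all.

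The lost CTCF peak lay in an intron of ONECUT1 (chr15:52783748-52784358), 2565 bp from its nearest start site. It had a mean of 45.1 counts, implied at 62.1 in non-senescent and 28.0 in senescent cells, a log2 fold change of -1.15 (SE 0.35, adjusted p = 0.038). With the GC trend removed it was -1.02 (adjusted p = 0.13), still a loss at the limit of 0.2. Against a 1.5-fold change, or with peaks under 50 counts left out, it was not called. The middle 200 bases of this peak, from hg38, plus strand, with CpG in capitals, hold 21 CpG.
ONECUT1 intron, chr15:52783954-52784153: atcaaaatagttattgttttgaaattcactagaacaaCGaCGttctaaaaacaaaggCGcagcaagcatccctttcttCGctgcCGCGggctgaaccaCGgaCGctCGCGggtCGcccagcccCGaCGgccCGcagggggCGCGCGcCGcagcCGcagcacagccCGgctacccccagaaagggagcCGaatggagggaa
The neighbouring CTCF peak over an alternative ONECUT1 start site, 9.4 kb downstream of the canonical one, had 289.6 counts and 0.19 (SE 0.14, adjusted p = 0.46). The peak by the canonical start site (chr15:52789596-52789944) had only 6.96 counts, no adjusted p and -0.13 (SE 0.81). A further intronic peak (chr15:52765843-52766131) had only 11.02 counts, no adjusted p and -1.34 (SE 0.64, 95% interval -2.60 to -0.086). The peaks of the gene thus had values of both signs, and the weaker ones had wide intervals.

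At promoters, the CTCF peaks with the most reads were those of FOXA2 (540.1 counts, log2 fold change 0.03, SE 0.11), ONECUT1, FOXA3 (269.9, -0.05, SE 0.15), SOX9 (232.6, -0.01, SE 0.15) and FOXA1 (160.6, -0.34, SE 0.17). Those of GATA6 (76.4, 0.15, SE 0.25), GATA4 (28.1, -0.82, SE 0.40) and HNF4A (13.5, 0.07, SE 0.60) held fewer. The ONECUT1 peak used here is the one at the alternative start site. In order of log2 fold change from GATA4 to ONECUT1, no neighbours differed beyond their errors. Genes further apart in this order were not compared. The lowest adjusted p was 0.25 (GATA4 and FOXA1), so no promoter was called. For HNF4A the 95% interval from -1.11 to 1.25 means that a 1.5-fold change was not detectable at this depth.

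Few of these CTCF peaks held the exact letters of a CTCF core, a search that also misses most CTCF peaks of the table and counts no near matches. The 12-letter core CCANNAGNNGGC, searched on both strands, was present in 3 of 32 peaks (9.38%), in 23.6% of all CTCF peaks and in 3.40% of the same regions moved by 10 kb. The 3 core sites are shown from hg38, minus strand, with the core in capitals.
HNF4A intron, chr20:44385797-44385836: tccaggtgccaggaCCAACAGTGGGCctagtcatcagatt
SOX9 upstream, chr17:72118491-72118530: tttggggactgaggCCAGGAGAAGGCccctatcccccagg
FOXA2 upstream, chr20:22683267-22683306: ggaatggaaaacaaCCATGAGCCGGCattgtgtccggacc
Their peaks had 602.7, 232.6 and 441.1 counts and log2 fold changes of -0.09 (SE 0.11), -0.01 (SE 0.15) and 0.03 (SE 0.13). The HNF4A site had the most reads of the 32 peaks, and the FOXA2 site lay 99.8 kb upstream of its gene. All 3 peaks thus had narrow intervals around 0. Of the 32 CTCF peaks, 18 (56.2%) overlapped an H3K27ac peak, beside 30.4% of all CTCF peaks. At the GATA6 promoter, where H3K27ac was lost, the CTCF peak over the start site had 0.15 (SE 0.25, adjusted p = 0.78). A weaker CTCF peak of that promoter (chr18:22168350-22168712, 16.4 counts, no adjusted p) had -1.01 (SE 0.52), and the inverse-variance mean of both was -0.069 (SE 0.23).

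For context, 16 other endoderm and pancreatic progenitor genes were examined at their promoters (SOX17, HHEX, PDX1, PTF1A, MNX1, PROX1, NKX6-1, NKX2-2, NEUROG3, ONECUT2, ONECUT3, GATA5, RFX6, HES1, NR5A2 and TEAD1). H3K27ac promoter peaks were present at 11 of them, of which 2 were lost and 9 were not called. Over all H3K27ac promoter peaks, 9.98% were lost and 5.92% gained. The lost ones were HHEX, an early foregut homeobox factor (363.5 counts, log2 fold change -0.76, SE 0.12, adjusted p = 2.0e-09), and NR5A2, a nuclear receptor of acinar cells (24.9 counts, -1.02, SE 0.41, adjusted p = 0.033). The median log2 fold change over the 11 was -0.0048, beside -0.02 over the 5 promoter peaks of the 8 genes. CTCF promoter peaks were present at 5 of the 16 and none was called, beside 5.21% lost and 0.975% gained of all CTCF promoter peaks with an adjusted p.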

How the data were processed

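The members and gene lists were chosen with earlier results of these data known. The study's methods give Trim Galore for trimming, Bowtie2 for alignment (hg38), HOMER for H3K27ac peaks, MACS2 for those of CTCF, both against input, and DESeq2 for the comparison of the states (tool versions are not given in the sources used here). The methods state that CTCF peaks were filtered for the motif. At the study's thresholds 1690 of the deposited CTCF peaks were lost and 1180 gained. Both counts are higher than those the paper reports for motif sites, so the deposited set differs from the one counted there. The deposited mean signal is the authors' mean of read counts divided by size factors. The deposited log2 fold change, its standard error (a score) and the deposited p-value and adjusted p-value are the authors' too. The authors' enhancer and Rb lists hold positions alone.

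The deposited comparison columns were read as given, since values per library, which a count test would need, are not in the tables. They hold the comparison itself, so all values here are thresholds, counts and intervals set on them. Because of the size factors, a rise or fall of a whole mark would not be visible. Intervals are 95% (1.96 SE). Peaks, start sites (GENCODE 44) and sequence (hg38) were joined with Python 3.11.15, pandas 2.3.3, numpy 2.4.6 and scipy 1.17.1, tested on simulated data. Coordinates are as the files give them. Described were all 8 genes with their leading promoter peak, every called peak, and the peaks with the most reads or largest changes. Alternatives were other folds, thresholds, count minimums, reaches, start sites, centring and GC correction. Some genes of the planned list of further progenitor factors are not reported here.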

Additional observations from a re-analysis of the deposited data

Results flagged for a closer look

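The authors' list of Rb regions specific to senescent cells, which none of the comparisons uses, held 1 region assigned to the 8 genes. It lay 61206 bp from the nearest GATA6 start site (chr18:22232139-22232587, outside the GATA6 gene body), and 0 Rb regions lay at a promoter of the 8 genes. It was marked because it is signal outside the main measurement. The list holds positions alone, so the region has no count and no error, and its relation to the losses of H3K27ac at GATA6 was not tested.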

How the results depend on the processing

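Of 60 recomputed counts, 45 stayed within 1.5 times the reported one and 15 moved. The 6 lost H3K27ac peaks became 3 at a fold change above 2, 1 in a test against a 1.5-fold change and 3 with the nearest start site of any gene type. The count of gained H3K27ac peaks became 1 at a reach of 200 kb. The single lost CTCF peak became 0 in the test against 1.5-fold and 0 at a minimum of 50 counts, and 2 at 200 kb. Listed enhancers (non-senescent 16, senescent 13, non-senescent only 6, senescent only 3) became 6, 3, 3 and 0 with start sites of any gene type. The senescent list became 7 and its senescent-only part 1 at 50 kb, and the lists became 25 and 21 at 200 kb. Of 31 recomputed promoter values 26 kept their sign or call and 5 uncalled CTCF values changed sign: FOXA2 to -0.0013 with all promoter peaks averaged and to -0.0071 centred on the peaks with the most reads, GATA6 to -0.069 averaged, and FOXA3 to 0.17 and SOX9 to 0.054 with the GC trend removed. No paired analysis was possible because the tables hold no values per library, and for the same reason no replicate could be left out. Depth limits the CTCF values, since 10 of the 32 peaks had too few reads for an adjusted p.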
